A study of Mus musculus with 300 samples.

Results

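GW501516 is a synthetic agonist of the nuclear receptor PPARδ. Livers of mice given GW501516 at 10 mg/kg were compared with livers of vehicle-treated mice on days 4, 8 and 15. The comparison took every liver array with either label: 5 GW501516 arrays and 10 vehicle arrays on each day, 45 of the 300 arrays in the series. The other liver arrays were from mice given the PPARα agonist WY14643 or the PPARγ agonist rosiglitazone, each at 10 mg/kg with 5 arrays per day. From the same animals, heart, kidney and skeletal muscle were hybridised as well. Total RNA was hybridised to Affymetrix arrays, and the authors' values are log2 intensities, read here for 18193 genes with 1 probe set per gene. The labels give every liver its own mouse number, so arrays of a group are separate animals. Dosing was oral. Strain, sex, age, feeding state, time of day at tissue collection and the composition of the vehicle are not given in the sources used here.

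The PPARs are ligand-activated transcription factors that bind DNA as partners of the retinoid X receptor, at a pair of short repeats with a spacer between them. Their classical targets in liver are genes of fatty acid uptake, activation and oxidation in mitochondria, peroxisomes and the endoplasmic reticulum. PPARα is the main form in hepatocytes, and PPARδ, which is made in most tissues, is best known for fatty acid oxidation in muscle.

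All liver arrays had a median between 7.23 and 7.60 over the 18193 genes. The median hepatocyte marker, out of 13 measured, lay between percentiles 99.6 and 99.8 of all genes on the 45 arrays. On day 4 the mean level of the 13 ran from 13.16 to 13.45 in GW501516 livers and from 13.47 to 13.59 in vehicle livers. On days 8 and 15 the 2 ranges overlapped. Of the 13 markers, 1 rose and 3 fell on the mean of the 3 days, where 6.86% of all genes rose and 7.06% fell. The part of this in other values was not tested. The first GW501516 array of day 15 stood apart from the other 4 of its group. Over the 35 measured genes of a list of known PPAR targets, it was on average 0.54 above the day 15 vehicle mean on the log2 scale, and the other 4 were between 1.19 and 1.27 above it. The 10 vehicle arrays of day 15 ranged from -0.24 to 0.45 on this measure. Without it, none of the 143 named genes called on day 15 changed in day 15 effect by more than 1.5 times on the log2 scale. Counts are given below with and without it, as are several of the day 15 effects. Mouse numbers ran in unbroken blocks by treatment within each day, so that the order of the animals and the treatment cannot be told apart. In whole tissue, fewer cells of a type and less RNA per cell cannot be told apart either.

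Genes of fatty acid oxidation were among the largest rises on each day, and genes of glucose release and amino acid breakdown were among the falls held on each day. A gene was called when its adjusted p was under 0.05 in limma with Benjamini-Hochberg adjustment over all genes. On day 4, 150 genes rose and 95 fell, 1.35% of those tested (0.824% up and 0.522% down). On day 8, 700 rose and 907 fell (8.83%, 3.85% up and 4.99% down). On day 15, 470 rose and 334 fell (4.42%, 2.58% up and 1.84% down). With each array centred on its own median instead, the rises and falls were 91 and 123 on day 4, 1020 and 477 on day 8, and 291 and 368 on day 15, so the balance of rises and falls on a single day depended on the scaling. For the mean of the 3 day effects, 1248 genes rose and 1284 fell (13.9%, 6.86% up and 7.06% down), of which 227 changed by at least 1.5-fold. Without day 8 or day 15 the mean called 1344 or 1462 genes. Without the first GW501516 array of day 15, the mean gave 1224 rises and 1271 falls, and day 15 gave 409 and 293. Leaving out single arrays moved the day counts further: day 4 had 135 or 128 called genes without GW501516 array 1 or 4, day 8 had 938 without array 3, and day 15 had 518 or 534 without array 2 or 5.

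Most genes called on the mean were not called on every day. Of the 2532, 983 were called on no single day, 1048 on 1 day, 422 on 2 days and 79 on all 3 in the same direction. The 79 genes are 0.434% of those tested: 64 rose on each day (0.352%) and 15 fell on each day (0.0824%). The 3 days share no array. The median size of change among the 79 was 0.62 on the log2 scale, against 0.23 for all genes called on the mean. A call on a single day needs a larger change than a call on the mean, so this follows in part from the selection. Of the 79, 43 changed by at least 1.5-fold. For 32 of the 79 (0.176% of genes tested), no GW501516 array overlapped any vehicle array of the same day on any of the 3 days. On single days the groups were apart for 1.08% of genes on day 4, 2.39% on day 8 and 1.92% on day 15. Of the 245 genes called on day 4, 197 had the same sign on day 8 and 226 on day 15. Without the first GW501516 array of day 15, 60 genes rose and 15 fell on each day.

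**Figure D1:**
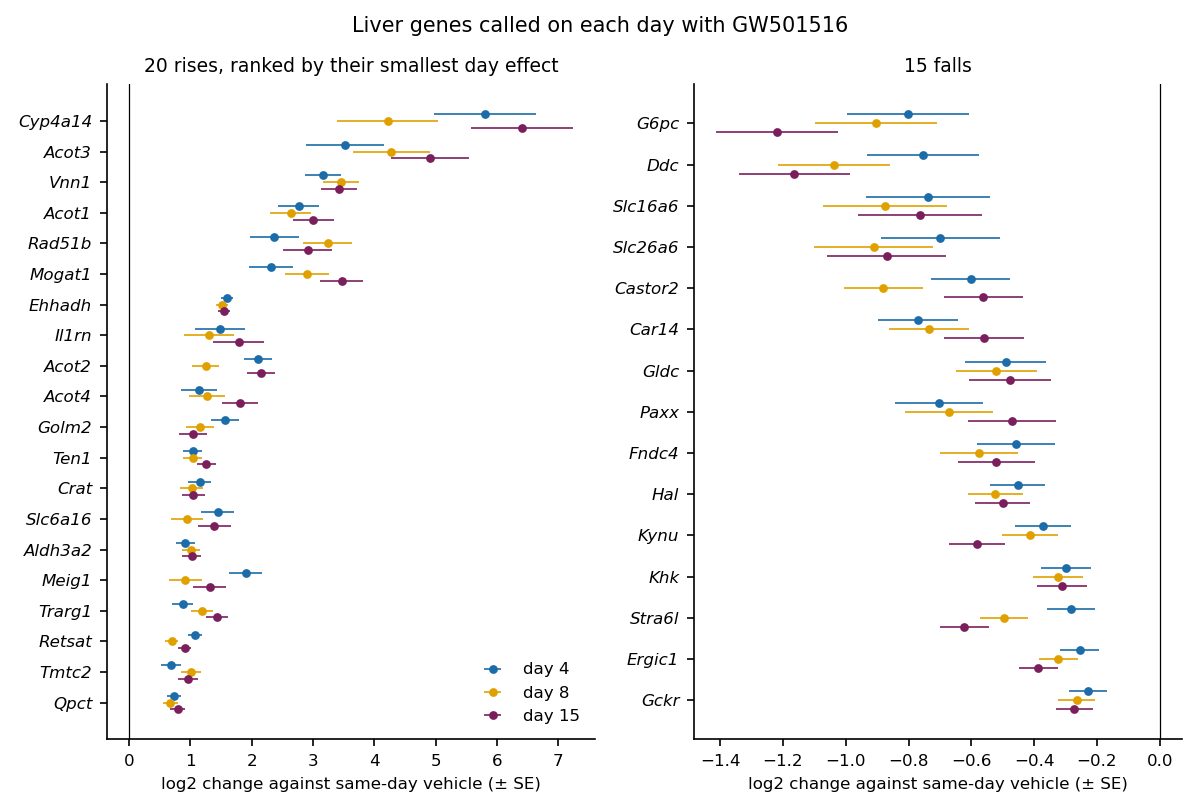
Log2 difference between GW501516 and vehicle livers on day 4, day 8 and day 15 (x axis) for the 20 rises with the largest smallest day effect and for the 15 falls called on each of the 3 days (y axis). Points are day effects from limma and bars their standard errors, and the 3 day effects of a gene lie on the same side of 0 throughout, from Cyp4a14 at 4.22 to 6.41 down to Gckr at -0.23 to -0.27.

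Enzymes that oxidise the far end of fatty acids or cleave acyl-CoA gave the largest rises. Cyp4a14, a cytochrome P450 that hydroxylates fatty acids at the omega end, read 13.87, 13.45, 13.57, 13.84 and 13.62 in the GW501516 livers of day 4, against a lowest, median and highest vehicle value of 5.25, 7.53 and 11.53. On day 8 it read 13.37, 13.78, 13.92, 13.89 and 13.60 against 6.26, 9.90 and 12.10, and on day 15 13.50, 13.79, 13.66, 13.77 and 13.76 against 5.08, 6.51 and 10.15. The treated livers were nearly uniform and the vehicle livers were spread over more than 5 log2 units each day, with no overlap. The day effects were 5.81, 4.22 and 6.41, and their mean was 5.48 ± 0.48 (SE, adjusted p = 1.5e-14), a 44.5-fold difference. The sequences of the Cyp4a genes are close to each other, as are those of the clustered Acot genes, and a probe set may not separate the members.

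Acot3, a peroxisomal acyl-CoA thioesterase, read 10.16, 9.66, 8.14, 10.59 and 8.66 on day 4, where vehicle livers had a lowest, median and highest value of 4.32, 5.88 and 7.36. It read 8.03, 9.98, 10.51, 8.70 and 9.29 on day 8 against 2.73, 5.16 and 6.92. On day 15 it read 7.59, 10.60, 10.76, 10.35 and 10.78 against 3.14, 4.92 and 7.20. Every treated liver exceeded every vehicle liver of its day, but the first array of day 15 only narrowly. Its day effects were 3.52, 4.28 and 4.91, and the last became 5.51 without that array. The cytosolic Acot1 rose by 2.77, 2.64 and 3.004 and the mitochondrial Acot2 by 2.11, 1.25 and 2.15, and in both the groups were apart on all 3 days. The other, dimmer probe set of Acot2 gave 0.49, 0.47 and 0.43. Acot4, a peroxisomal thioesterase, rose by 1.13, 1.27 and 1.81, with overlapping groups on each day. Of 20 measured genes of omega-oxidation and thioester cleavage, 10 rose and 2 fell on the mean, where 6.86% of all genes rose and 7.06% fell. The median was 0.21 against -0.01 for all genes. Acot8 was also called on each day, and Cyp4v3, at -0.16, and Baat, at -0.09, were the falls. The call for Baat was lost when any of 9 arrays was left out.

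Mitochondrial beta-oxidation rose as a group with small, even steps. Of 29 measured members, 24 rose (against 6.86% of all genes) and 1 fell, and 11 rose on each day; the median change was 0.24. Carnitine handling was included: Slc22a5, the carnitine transporter of the cell membrane, rose by 0.64, 0.78 and 0.88, and Crat, which moves acetyl groups on to carnitine, rose by 1.16, 1.02 and 1.05 with groups apart each day. Cpt1a, which admits long-chain fatty acids to the mitochondrion, read 12.31, 12.23, 12.02, 12.15 and 12.04 on day 4 against a lowest, median and highest vehicle value of 11.55, 11.72 and 12.19. It read 12.11, 12.52, 12.34, 11.87 and 11.81 on day 8 against 10.99, 11.43 and 11.67, and 11.76, 11.80, 12.19, 12.18 and 12.04 on day 15 against 11.17, 11.49 and 11.98. The groups were apart on day 8 alone. The day effects were 0.35 (adjusted p = 0.20), 0.76 and 0.46, so Cpt1a was called on 2 of 3 days. Other probe sets of Cpt1a, equally bright, gave smaller effects: 0.24, 0.58 and 0.17 in one, and 0.22, 0.60 and 0.19 in another.

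Inside the mitochondrion, the dehydrogenases Acadl (0.55, 0.47 and 0.52 on the 3 days), Acadm (0.50, 0.44 and 0.34) and Acadvl (0.22, 0.21 and 0.22) rose on each day. Both subunits of the trifunctional protein did so as well, Hadha by 0.43, 0.30 and 0.41 and Hadhb by 0.38, 0.41 and 0.36. The auxiliary enzymes for unsaturated fatty acids also rose on each day, Eci1 by 0.71, 0.55 and 0.78, Eci2 by 0.50, 0.58 and 0.54 and Decr1 by 0.38, 0.37 and 0.43. Acadsb, which acts on branched short-chain acyl-CoA, was the member that fell, by 0.13 on the mean. Acaa2, the thiolase of this pathway, changed by only 0.11, yet was called on all 3 days. Of the 45 measured respiratory chain genes, 13 rose (against 6.86% of all genes) and none fell on the mean, with a median of 0.06. None of the 45 passed the test when 2 components of clock gene expression, described below, were added as covariates (3 rises and 2 falls at an unadjusted p under 0.05).

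The peroxisomal list, which holds genes of peroxisome biogenesis as well as of oxidation, had a smaller share of rises. Of 43 measured peroxisomal genes, 16 rose (against 6.86% of all genes), 1 fell and 8 rose on each day (against 0.352%), with a median of 0.09. Ehhadh, the bifunctional enzyme of peroxisomal beta-oxidation, read 13.17, 12.90, 13.06, 13.06 and 12.80 on day 4 against a lowest, median and highest vehicle value of 10.97, 11.41 and 11.71. On day 8 it read 13.02, 13.23, 13.47, 13.28 and 13.20 against 11.22, 11.74 and 11.99, and on day 15 12.90, 13.31, 13.28, 13.29 and 13.37 against 11.36, 11.65 and 12.08. Ehhadh had an even response: day effects of 1.60, 1.52 and 1.55, a mean of 1.56 ± 0.056 (adjusted p = 4.4e-34) and no overlap. Pex11a, which divides peroxisomes, rose by 0.56, 0.80 and 0.65, and Ech1, Acaa1b and Hsd17b4 rose on each day with means of 0.53, 0.40 and 0.26. Abcd2, which imports very long-chain acyl-CoA, had day effects of 1.48 (adjusted p = 0.079), 1.78 and 2.23 (2.76 on day 15 without the first array). Pecr, a peroxisomal trans-2-enoyl-CoA reductase, was the fall, by 0.15, but its other probe set gave 0.02, and the call was lost with the mean of all probe sets and with clock covariates.

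**Figure D2:**
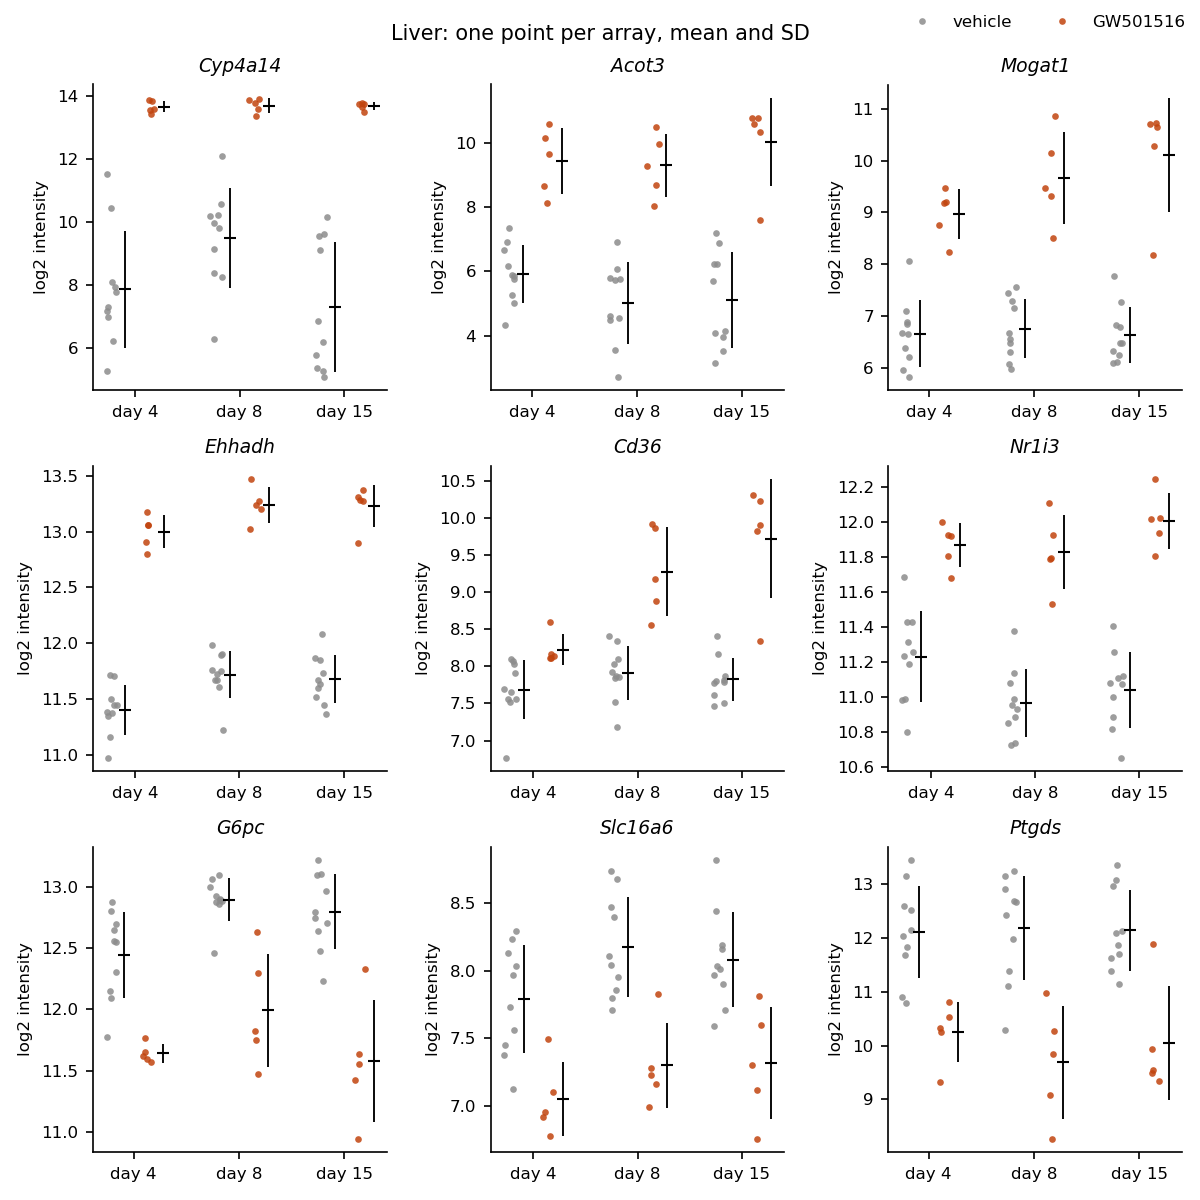
Log2 intensity of Cyp4a14, Acot3, Mogat1, Ehhadh, Cd36, Nr1i3, G6pc, Slc16a6 and Ptgds (y axis) in every GW501516 and vehicle liver by day (x axis). Each point is 1 array, with the group mean and SD beside it; the GW501516 and vehicle points of Cyp4a14, Acot3, Mogat1 and Ehhadh do not overlap on any day, and on day 15 the first GW501516 array lies apart from its group in Acot3 (7.59), Mogat1 (8.17), Cd36 (8.35) and Ptgds (11.89).

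In fatty acid entry and triglyceride synthesis, Mogat1 and Cd36 gave the largest rises. Mogat1, which joins a second acyl chain to monoacylglycerol, read 9.47, 9.21, 8.23, 9.19 and 8.76 on day 4 against a lowest, median and highest vehicle value of 5.83, 6.66 and 8.07. It read 9.46, 10.15, 10.86, 9.32 and 8.50 on day 8 against 5.98, 6.62 and 7.56, and 8.17, 10.64, 10.72, 10.71 and 10.28 on day 15 against 6.08, 6.48 and 7.78. All treated livers were above all vehicle livers of their day, and the day effects were 2.31, 2.90 and 3.47 (3.95 on day 15 without the first array). Of 18 genes of triglyceride synthesis, 8 rose (against 6.86% of all genes) and 2 fell (against 7.06%) on the mean, but Mogat1 was the member called on each day. The falls were Agpat2 (-0.39) and Agpat5 (-0.29), and both lost their call with clock covariates. The other probe sets of Agpat5 gave 0.02 and -0.04, and its call was also lost with the mean of all probe sets.

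Cd36, a fatty acid transporter of the cell membrane, was called on days 8 and 15. It read 8.59, 8.11, 8.15, 8.17 and 8.12 on day 4 against 6.77, 7.67 and 8.11, then 9.86, 9.18, 9.92, 8.55 and 8.89 on day 8 against 7.18, 7.90 and 8.41, and 8.35, 10.31, 9.83, 9.91 and 10.24 on day 15 against 7.47, 7.80 and 8.41. On day 4 the lowest treated value, 8.108, lay just above the highest vehicle value, 8.105. The groups were apart on day 8 and overlapped on day 15 through the first array. The day 4 difference of 0.54 did not pass the test (adjusted p = 0.47), while those of 1.37 and 1.90 did (2.25 on day 15 without the first array). The difference between the day 15 and day 4 effects was not called. Of 22 genes of fatty acid uptake, binding and activation, 8 rose (against 6.86% of all genes) and 1, the acyl-CoA synthetase Acsl6, fell by 0.54. In the lipid droplet list, 6 of 24 rose and 2 fell, where 6.86% of all genes rose and 7.06% fell. Fitm2, which buds droplets from the endoplasmic reticulum, rose by 0.43, 0.58 and 0.65, Hsd17b11 by 0.48, 0.73 and 0.67 and the monoglyceride lipase Mgll by 0.37, 0.61 and 0.43. Pnpla2, the triglyceride lipase, had day effects of 0.44 (adjusted p = 0.067), 0.66 and 0.74. Other probe sets of Mgll gave 0.55 and 0.63 on the mean, and a dim one gave -0.03. Cidec, Fabp4 and Lipe, 3 of 7 measured adipocyte markers, rose as well (against 6.86% of all genes). In GW501516 livers the mean adipocyte marker level ran from 7.04 to 7.39, 7.03 to 7.36 and 7.10 to 7.21 on the 3 days. In vehicle livers it ran from 6.78 to 7.11, 6.75 to 6.98 and 6.77 to 7.06, so the ranges overlapped on day 4 alone. The part of this level in the lipid droplet values was not tested.

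Promoter sequences are shown for 4 genes of the PPAR target list, because their windows hold a close match to the PPAR binding element. The windows run from 250 bases before to 50 bases after the start of transcription (RefSeq, GRCm38.p6), and both strands were searched for AGGTCANAGGTCA with at most 2 mismatches, a pattern with the hexamer AGGTCA at either end. The printed stretches are Mogat1 at chr1:78510930-78511059 (+ strand), Acot4 at chr12:84038249-84038378 (+ strand), Cd36 at chr5:17835897-17836026 (- strand) and Fabp1 at chr6:71199749-71199878 (+ strand). Capitals mark the match.
Mogat1: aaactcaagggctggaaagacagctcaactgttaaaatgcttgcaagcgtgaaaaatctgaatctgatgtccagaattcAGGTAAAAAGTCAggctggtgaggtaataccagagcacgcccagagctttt
Acot4: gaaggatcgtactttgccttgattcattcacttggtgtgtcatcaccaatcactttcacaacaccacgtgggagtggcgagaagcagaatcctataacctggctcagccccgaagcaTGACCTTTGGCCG
Cd36: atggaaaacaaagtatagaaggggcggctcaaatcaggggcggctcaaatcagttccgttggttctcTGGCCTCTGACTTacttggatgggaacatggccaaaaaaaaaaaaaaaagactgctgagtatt
Fabp1: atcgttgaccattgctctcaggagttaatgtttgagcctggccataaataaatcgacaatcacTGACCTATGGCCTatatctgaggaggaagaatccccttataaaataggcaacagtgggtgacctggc
The matches of Mogat1, Acot4 and Cd36 have 2 mismatches each and that of Fabp1 has 1. Of the 14452 genes with a window, 574 (3.97%) hold such a match. Among the PPAR target list, 9 of 29 genes with a window do (31.0%), and in mitochondrial beta-oxidation 4 of 26 (15.4%). Among the genes that rose on each day it was 3 of 48 (6.25%). Of the 9 target-list genes, Acot4, Cd36, Mogat1 and Slc25a20 rose, and Aqp7, Creb3l3, Fabp1, Plin2 and Ucp3 did not pass the test. Fabp1, the liver fatty acid binding protein, changed by -0.02 although it has the closest match of the 4 sequences. A match describes the letters and is no evidence of binding.

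In the PPAR target list, 35 genes were measured: 21 rose (against 6.86% of all genes), none fell and 14 did not pass the test on the mean. The median was 0.40. On days 4, 8 and 15, 15, 15 and 18 rose, and 12 rose on each day. Of all genes, 0.824%, 3.85% and 2.58% rose on these days, and 0.352% on each day. Vnn1, a pantetheinase, read 12.07, 11.48, 11.07, 11.51 and 11.17 on day 4 against a lowest, median and highest vehicle value of 7.44, 8.16 and 9.88. Its day effects were 3.16, 3.45 and 3.43 (3.67 on day 15 without the first array), with no overlap on any day. The 14 genes that did not pass included several best known as PPARδ or PPARα targets elsewhere. Pdk4, a kinase that restrains pyruvate oxidation, was at 0.21 ± 0.22 (adjusted p = 0.63), Angptl4, an inhibitor of lipoprotein lipase, at 0.17 ± 0.12 (adjusted p = 0.42) and Plin2, a lipid droplet coat protein, at 0.04. The hormone Fgf21 read 7.45, 7.17, 6.45, 8.06 and 7.26 on day 4 against 6.21, 6.58 and 7.48, then 7.14, 6.88, 7.77, 6.91 and 7.55 on day 8 against 6.62, 7.80 and 8.96, and 5.75, 6.18, 7.08, 6.76 and 6.57 on day 15 against 6.10, 7.05 and 8.05. Its groups overlapped on every day, and the mean change was -0.20 ± 0.19 (adjusted p = 0.59).

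Several genes outside the oxidation lists rose on each day. Nr1i3, the nuclear receptor CAR that controls drug metabolism, read 11.93, 11.68, 11.92, 12.005 and 11.81 on day 4 against 10.80, 11.25 and 11.69, then 11.53, 11.93, 11.80, 12.11 and 11.79 on day 8 against 10.73, 10.94 and 11.38, and 11.81, 11.94, 12.02, 12.03 and 12.25 on day 15 against 10.66, 11.08 and 11.41. The groups touched on day 4 and were apart on days 8 and 15, and the day effects were 0.64, 0.86 and 0.96. The related receptor Nr1i2 (PXR) rose by 0.47 on the mean, and Ppara by 0.31. The other probe set of Nr1i2 gave 0.19. Among the 40 measured cytochromes P450 of families 1 to 3, 5 rose and 7 fell, against 6.86% of all genes up and 7.06% down, which include Cyp2c55 at -1.21 and Cyp3a13 at 0.61. Rad51b, a recombination protein, rose by 2.37, 3.24 and 2.91, but its other probe set gave 0.12. Il1rn, the interleukin-1 receptor antagonist, rose by 1.48, 1.30 and 1.79 with overlap each day. The retinol saturase Retsat rose by 1.08, 0.70 and 0.91, the fatty aldehyde dehydrogenase Aldh3a2 by 0.92, 1.01 and 1.02, and the insulin-responsive vesicle protein Trarg1 by 0.87, 1.19 and 1.44.

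The falls held on each day included genes of glucose and amino acid metabolism. G6pc, the last enzyme of glucose release, read 11.62, 11.57, 11.60, 11.77 and 11.66 on day 4 against a lowest, median and highest vehicle value of 11.78, 12.55 and 12.88. It read 11.82, 12.63, 12.29, 11.75 and 11.47 on day 8 against 12.46, 12.90 and 13.10, and 10.95, 11.64, 11.56, 12.33 and 11.42 on day 15 against 12.23, 12.77 and 13.21. The groups were apart on day 4 and overlapped by 1 treated liver on each later day. The day effects were -0.80, -0.90 and -1.22 (-1.06 on day 15 without the first array), and G6pc thus fell by 0.97 on the mean. Khk, the fructose kinase, fell by 0.30, 0.33 and 0.31, and Gckr, the regulator of glucokinase, by 0.23, 0.26 and 0.27. Of 36 genes of glucose production and glycolysis, 4 rose and 8 fell on the mean (against 7.06% of all genes); the median was -0.01.

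Of 43 genes of the urea cycle and amino acid breakdown, 16 fell and 5 rose on the mean, where 7.06% of all genes fell and 6.86% rose. The median was -0.02, against -0.01 for all genes. Hal, which opens histidine breakdown, fell by 0.45, 0.52 and 0.50 with no overlap on any day, Gldc of the glycine cleavage system by 0.49, 0.52 and 0.48 and Kynu of tryptophan breakdown by 0.37, 0.41 and 0.58. Ddc, the aromatic amino acid decarboxylase, fell by 0.75, 1.04 and 1.16. Tat, the tyrosine aminotransferase, had effects of -0.91, -0.13 and -0.07, of which the first was called. The difference between its day 15 and day 4 effects was not called. Slc16a6, a transporter linked to ketone body export, read 6.96, 7.50, 6.78, 6.92 and 7.11 on day 4 against 7.13, 7.85 and 8.29, then 7.83, 7.17, 7.28, 7.23 and 6.99 on day 8 against 7.71, 8.07 and 8.74, and 6.76, 7.12, 7.81, 7.60 and 7.30 on day 15 against 7.59, 8.02 and 8.82. All 15 treated livers were below the vehicle mean of their day, with some overlap each day, and the effects were -0.74, -0.88 and -0.76, the last at -0.62 without the first array.

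Larger falls on the mean were less even across days. Ptgds, a prostaglandin D synthase that is also secreted, read 10.53, 10.34, 10.81, 9.32 and 10.26 on day 4 against 10.80, 12.10 and 13.44, then 10.97, 10.27, 9.85, 8.27 and 9.07 on day 8 against 10.29, 12.54 and 13.25, and 11.89, 9.94, 9.55, 9.49 and 9.35 on day 15 against 11.15, 11.99 and 13.36. At least 1 treated liver overlapped the vehicle range on each day. The effects were -1.86 (adjusted p = 0.058), -2.50 and -2.10, the last at -2.56 without the first array. Serpina12, the secreted serpin vaspin, had effects of -0.65 (adjusted p = 0.44), -1.55 and -1.66 (-1.83 on day 15 without the first array). Of 22 measured secreted regulators made by the liver, 8 fell, which include Inhba (-0.90) and Fndc4 (-0.52), and 2 rose. Of all genes, 7.06% fell and 6.86% rose on the mean.

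Clock genes differed between groups on days 8 and 15 and not detectably on day 4. Arntl (Bmal1), the clock's core activator, read 5.14, 5.51, 5.38, 4.97 and 5.35 on day 4 against a lowest, median and highest vehicle value of 5.07, 5.78 and 6.02. It read 5.23, 5.57, 5.69, 5.28 and 5.49 on day 8 against 6.41, 8.20 and 9.27, and 5.70, 5.31, 5.06, 5.29 and 5.29 on day 15 against 6.11, 7.37 and 8.89. The GW501516 livers held the same low level on all 3 days, and it was the vehicle livers that were higher on days 8 and 15. Ciart, a repressor of the clock, showed the mirror image, with treated livers between 9.25 and 10.83 throughout and vehicle medians of 9.56, 7.002 and 8.05. Usp2, a deubiquitinase with a strong daily rhythm, had vehicle medians of 12.07, 9.26 and 10.57 and treated values between 11.55 and 12.72. None of the 14 core clock genes was called on day 4 in limma (1 at an unadjusted p under 0.05), whereas 6 rose and 3 fell on day 8 and 3 rose and 3 fell on day 15.

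The first principal component of these 14 genes carried 52.1% of their variance. It ran from -2.73 to -1.22 in all GW501516 livers and had vehicle medians of -1.94, 4.08 and 2.03 on days 4, 8 and 15, with no overlap on days 8 and 15. WY14643 livers had medians of 3.24, -0.75 and 1.25, and rosiglitazone livers -1.97, -2.58 and -2.05. Vehicle livers differed among days in this measure more than GW501516 livers did. The effect on day 8 differed from that on day 4 for 190 genes (1.04%): 88 were higher on day 8 and 102 lower. With each array centred on its median, 195 were higher and 43 lower. The 190 became 105 or 81 without GW501516 array 2 or 5 of day 4, 123 or 95 without array 2 or 3 of day 8, and 126 or 124 without vehicle array 4 or 7 of day 4. Npas2, a relative of Clock that pairs with Arntl, had the largest fall between the days, of 3.07. The other probe set of Npas2 showed little change on the mean (0.01). No gene was called for day 15 against day 4 in limma, although 1214 had an unadjusted p under 0.05 and 35 were called with array weights. Whether time of collection, order of the animals or treatment sets these differences cannot be told apart here.

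**Figure D3:**
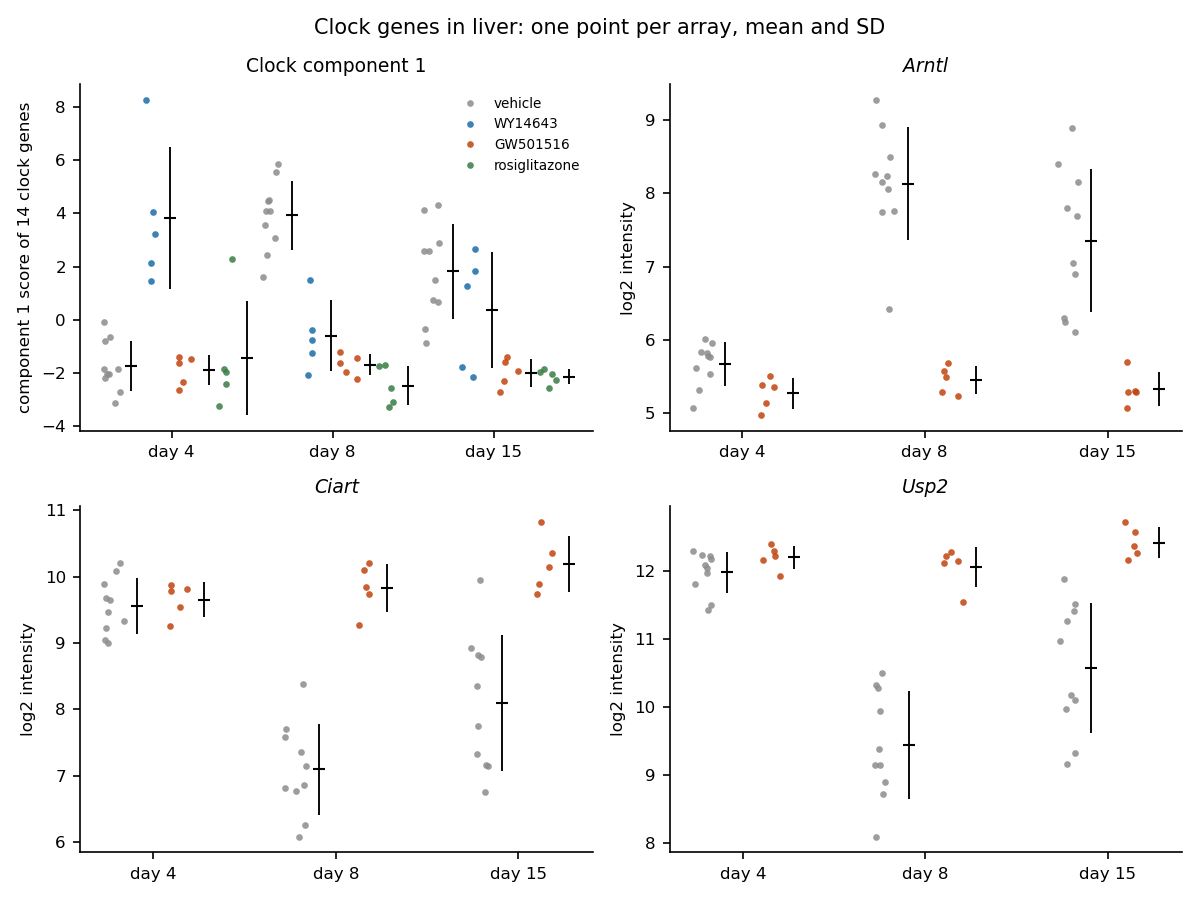
Component 1 score of 14 clock genes, and log2 intensity of Arntl, Ciart and Usp2 (y axes), by day and treatment (x axis), with 1 point per liver array. GW501516 livers stay in a narrow band on all 3 days (component 1 between -2.73 and -1.22), and vehicle livers overlap it on day 4, where 6 of 10 lie inside, and lie higher on days 8 and 15 (medians 4.08 and 2.03).

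Promoters of 2 clock genes that changed are shown with the elements through which the clock is known to act, the E-box CACGTG and the D-box TTATGTAA (at most 1 mismatch). They are Ciart at chr3:95882229-95882358 (- strand, 3 E-boxes) and Per3 at chr4:151044666-151044915 (- strand, 2 D-boxes without mismatch), with the elements in capitals.
Ciart: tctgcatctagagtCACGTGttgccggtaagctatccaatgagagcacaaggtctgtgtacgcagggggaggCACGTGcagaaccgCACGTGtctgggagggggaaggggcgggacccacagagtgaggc
Per3: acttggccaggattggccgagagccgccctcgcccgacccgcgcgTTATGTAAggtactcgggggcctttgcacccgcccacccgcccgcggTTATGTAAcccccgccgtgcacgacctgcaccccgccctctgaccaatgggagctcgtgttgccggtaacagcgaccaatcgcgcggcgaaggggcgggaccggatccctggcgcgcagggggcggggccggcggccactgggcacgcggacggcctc
An E-box was found in 1479 of the 14452 genes with a window (10.2%), in 4 of 12 core clock genes (33.3%) and in 10 of 48 genes that rose on each day (20.8%). A D-box was found in 1842 of the 14452 (12.7%), in 2 of the 12 core clock genes (16.7%) and in 10 of the 48 genes (20.8%).

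Because the clock component moved with treatment on days 8 and 15, every value was also fitted with the first 2 clock components as covariates. This left 294 rises and 266 falls on the mean (560 genes, 3.08%), 282 called genes on day 4, 148 on day 8 and 95 on day 15. Of the 79 genes called on each day, 74 were still called on the mean; the exceptions were Acaa2, Fam76a, Pla2g6, Slc16a7 and Wdfy1. In the PPAR target list 18 of the 21 rises were still called, and in mitochondrial beta-oxidation 14 of 24. In the cholesterol synthesis list 9 rises passed in this fit, and in amino acid breakdown 9 falls. Of the 9 core clock genes called on the mean, Arntl alone was still called. The components were computed from the 14 core clock genes themselves, so the loss of their calls was largely built into this fit and tells nothing about them. All 15 falls of the complement, coagulation and acute phase list (59 measured), which include C9 at -0.32, lost their call, though 10 members were lower at an unadjusted p under 0.05. All 7 falls among the 32 genes of the unfolded protein and integrated stress responses lost theirs too, with 3 lower before adjustment. Without these covariates, 7.06% of all genes fell on the mean.

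**Figure D4:**
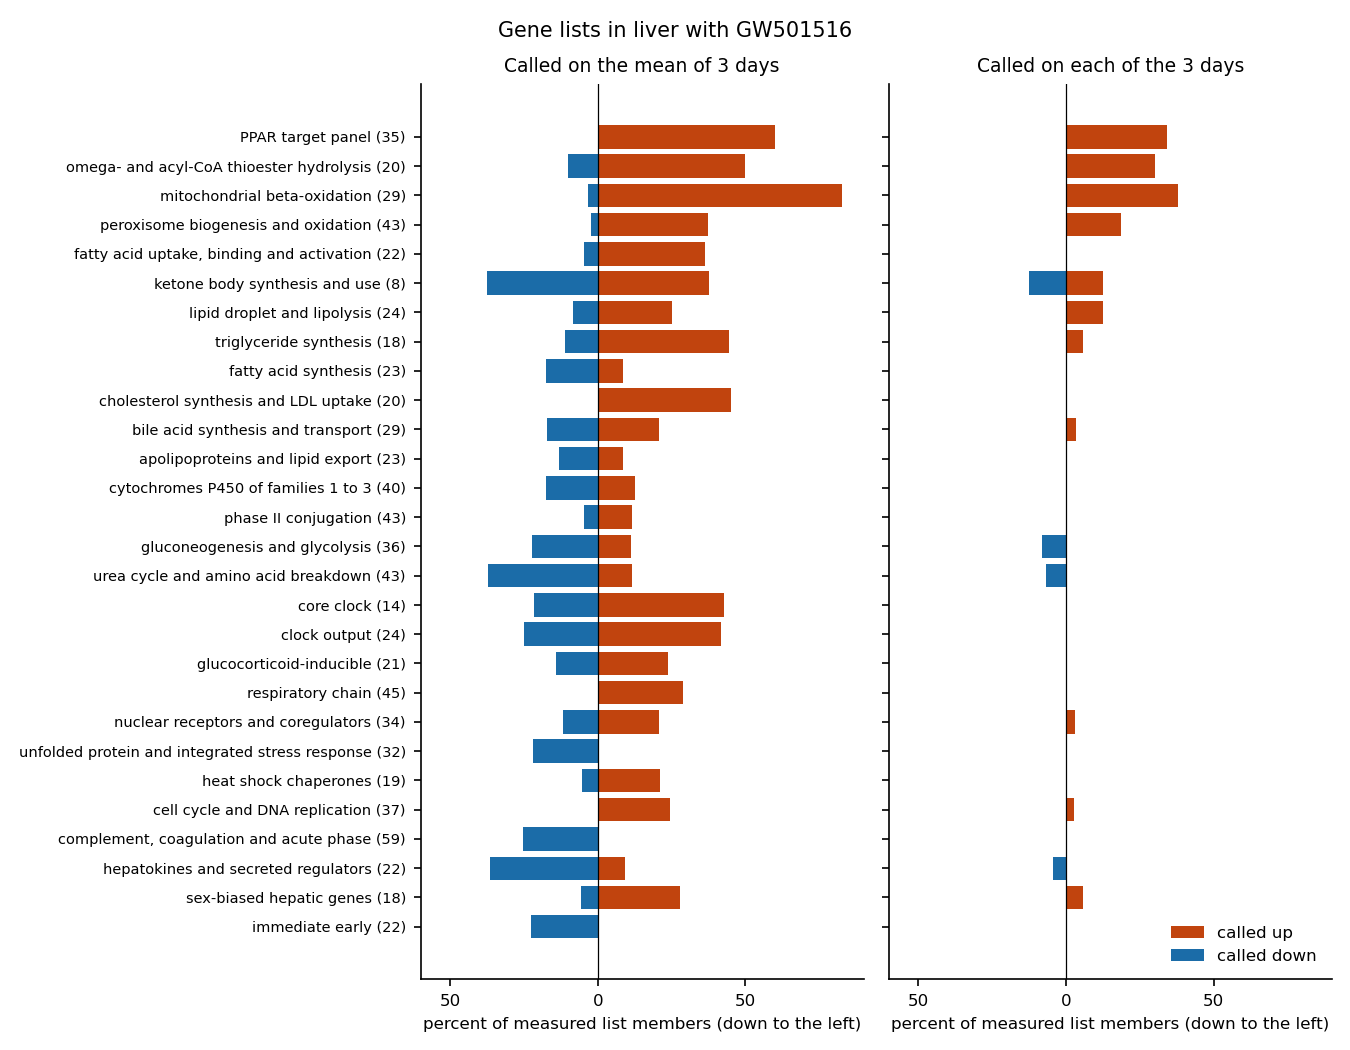
Share of the measured members of 28 pathway lists (y axis) that rose or fell, in percent (x axis), on the mean of the 3 days and on each of the 3 days, at adjusted p under 0.05 in limma. On the mean, mitochondrial beta-oxidation, with 24 of 29 members up, and the PPAR target list, with 21 of 35, are the fullest lists on the side of rises.

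In the cholesterol synthesis list 9 of 20 rose (against 6.86% of all genes) and none fell, with a median of 0.23, but at most 2 members were called on any single day. Cyp51 had effects of 0.32, 0.49 and 0.42 and Msmo1 of 0.25, 0.56 and 0.51. The sterol transporter Abcg5 rose by 0.52 on the mean and the bile salt exporter Abcc3 by 0.59, 0.44 and 0.83, while Slc51b, part of the basolateral bile acid exporter, had effects of -1.19, -0.89 and -1.11. In bile acid synthesis and transport 6 of 29 genes rose and 5 fell, where 6.86% of all genes rose and 7.06% fell. In the cell cycle list 9 of 37 rose (against 6.86% of all genes) and none fell, with a median of 0.29. Ccnd1, cyclin D1, was at 1.06 on the mean with 1 day called, and the call was lost with the clock covariates. Few markers of other cell types were called: none of 14 endothelial (2 at an unadjusted p under 0.05), 9 neutrophil (0) or 7 cholangiocyte markers (0), and 1 of 13 Kupffer cell markers (Lyz2, a fall). Of 13 stellate cell and fibroblast markers 4 fell (Lrat, Des, Pdgfrb and Ecm1), against 7.06% of all genes. The mean level of the 13 on day 8 ran from 8.67 to 9.08 in GW501516 livers and from 9.02 to 9.66 in vehicle livers, and its part in the day 8 counts was not tested.

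GW501516 was set against the other compounds directly, at the same dose and days, for 2 pairs of compounds. Against WY14643, 414 genes were higher and 413 lower (4.55%, 2.28% higher and 2.27% lower), and against rosiglitazone 409 were higher and 244 lower (3.59%, 2.25% higher and 1.34% lower). With arrays centred on their medians the latter were 281 and 259. With clock covariates, 32 genes differed from WY14643 and 200 from rosiglitazone. The count against WY14643 was 196 without day 4 and 347 without day 15, and that against rosiglitazone was 387, 287 and 223 without days 4, 8 and 15. Of the 35 PPAR target genes, 6 were lower and 1 higher with GW501516 than with WY14643, and 14 were higher and 2 lower than with rosiglitazone.

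Of the PPAR target genes that were lower than with WY14643, Mogat1 was lower by 1.48 (95% interval -1.95 to -1.002, adjusted p = 2.3e-05), Cd36 by 1.19 (-1.59 to -0.79) and Ehhadh by 0.33 (-0.46 to -0.20). Cpt1a was higher, by 0.35 (0.17 to 0.52, adjusted p = 0.0094), as was Nr1i3, by 0.45 (0.28 to 0.63). The difference for Cyp4a14 was -0.20 with an interval of -1.30 to 0.91, too wide to show likeness, and that for Pex11a was 0.13 (-0.03 to 0.28). Without the first GW501516 array of day 15, the differences were -1.31 for Mogat1, -1.07 for Cd36, -0.30 for Ehhadh and 0.37 for Cpt1a. Outside the list, Cyp7a1, the rate-limiting enzyme of bile acid synthesis, was 1.16 higher than with WY14643 (0.63 to 1.68, adjusted p = 0.0032). Serpina12 was 1.06 higher, since it fell further with WY14643 (-2.34). The clock component was apart between these compounds on day 4, at 1.47 to 8.25 with WY14643 and -2.64 to -1.39 with GW501516. On days 8 and 15 the ranges overlapped, with medians of -0.75 and 1.25 against -1.63 and -1.93. The part of the clock component in these differences was not tested gene by gene beyond the covariate fit.

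Against rosiglitazone, Cyp4a14 was higher by 4.75 (3.65 to 5.85), Mogat1 by 1.64 (1.17 to 2.12), Ehhadh by 1.38 (1.25 to 1.51, adjusted p = 3.7e-27) and Vnn1 by 0.98 (0.59 to 1.38). Without the first array of day 15 these were 4.77, 1.81, 1.41 and 1.06. Plin4 and G0s2, both lipid droplet proteins, were lower by 1.11 and 0.91. For Acot3 the difference of 0.70 did not pass the test (-0.14 to 1.54; 0.90 without that array), and Pex11a differed by 0.01 (-0.15 to 0.16). Of the 20 cholesterol synthesis genes 17 were higher with GW501516 than with rosiglitazone. The rosiglitazone effect on them was itself mostly negative, for example -0.88 for Mvd and -0.54 for Sqle.

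**Figure D5:**
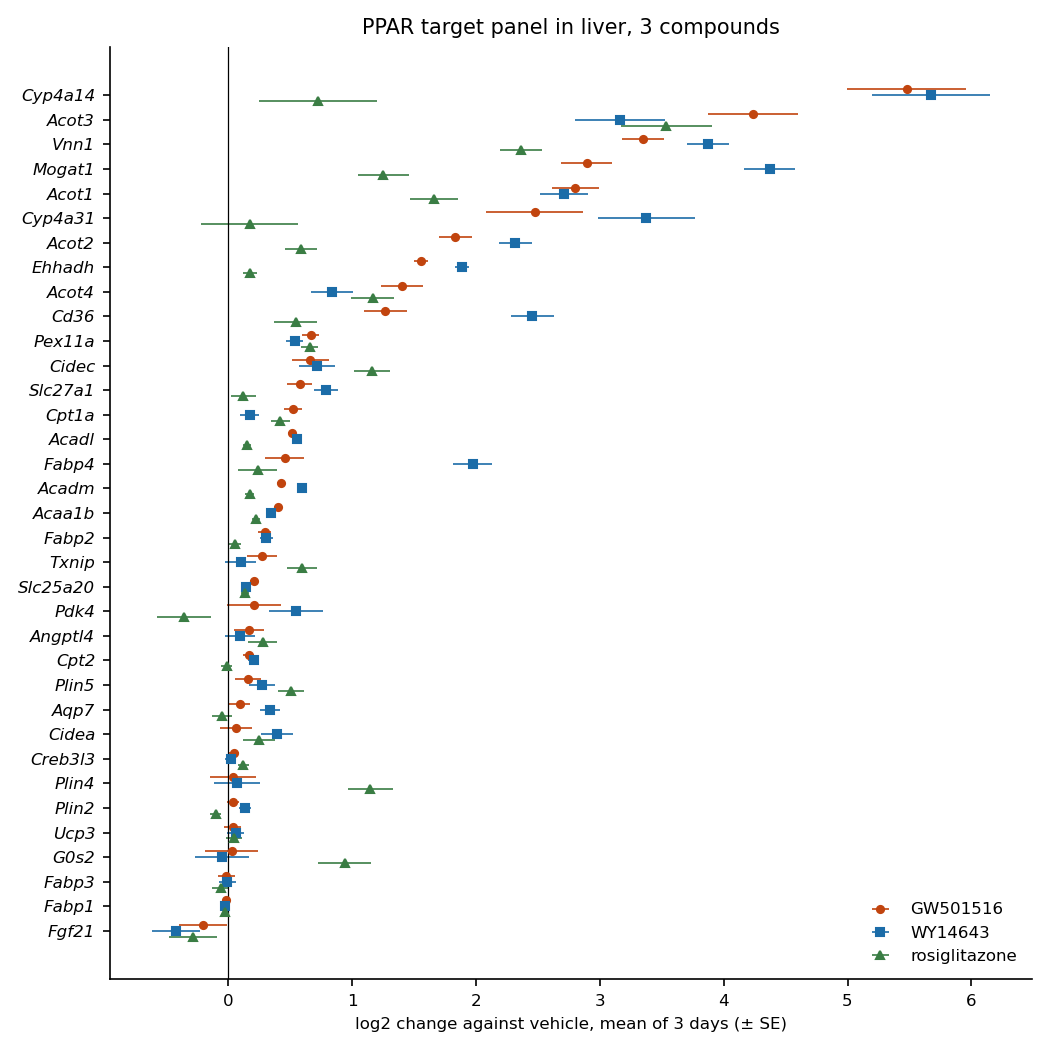
Mean of the 3 day effects against vehicle (x axis, log2, bars are standard errors) for the 35 measured PPAR target genes (y axis) in livers of mice given GW501516, WY14643 or rosiglitazone. The 3 compounds share their vehicle arrays; Cyp4a14 lies at 5.48, 5.67 and 0.73 and Ehhadh at 1.56, 1.89 and 0.18.

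In the other tissues of the same GW501516 animals, kidney had the most of the 79 genes held in liver. There 34 were called in the same direction as in liver and 2, Car14 and G6pc, in the opposite one, against 6.79% of all genes called in kidney. Cyp4a14 rose by 3.78 in kidney and 2.04 in heart, Acot1 by 1.68 and Acot3 by 1.49 in kidney. In heart 6 of the 79 were called in the same direction and 2 in the opposite (background 4.17%), and in skeletal muscle 6 and 1 (0.857%), the former being Acadl, Acot2, Crat, Eci2, Lmbrd1 and Vwa8. Cpt1a rose in all 3, by 0.49 in heart, 0.35 in kidney and 0.81 in skeletal muscle. Pdk4, which did not pass in liver, rose by 0.91 in kidney.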

How the data were processed

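The deposited values are log2 intensities of 45101 Affymetrix probe sets on 300 arrays, 75 per tissue; per the submitters' processing notes the authors used RMA and Partek, with versions not given in the sources used here. Per the labels' protocols, 100 ng of total RNA was amplified and biotin-labelled. RMA shrinks differences of dim probe sets, and which arrays were normalised together is not given in the sources used here. The number of arrays limits the precision.

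In the platform annotation 34945 probe sets match 1 gene, 932 several and 9160 no gene, beside 64 controls. Symbols were updated through gene IDs for 34741 and kept as listed for 204. This gave 18193 genes, of which 9010 have more than 1 probe set, and the brightest on average over all arrays stood for its gene. No arrays were identical.

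Group means of the 12 liver groups (75 arrays) were fitted with limma 3.58.1 in R 4.3.3 (lmFit, then eBayes with trend, 63 residual degrees of freedom), and two-sided p-values were adjusted over all genes by Benjamini-Hochberg. Each day was contrasted with vehicle of that day, and the mean over days gives each day the same weight. The script was tested on simulated data. Genes were named by rule: the 12 largest rises and 10 largest falls for which 14 or 15 of the 15 treated livers lay on that side of the vehicle mean, the 12 rises and 8 falls with the largest smallest day effect, the PPAR target list, and up to 6 members per list. Gene members, lists and the genes shown by array were chosen with earlier results of these data known, so no list is given a test. Alternatives were another threshold, scaling, probe set rule, filter, weights, clock covariates, replicate numbers as a block, and leaving out arrays or days.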

Additional observations from a re-analysis of the deposited data

Results flagged for a closer look

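Among 126 groups of 5 or 10 arrays tested for a sample far from the others (GW501516 and vehicle livers of each day, for 20 genes shown by array and for clock component 1, Dixon's criterion at 95%), 12 were marked, where chance marks about 1 in 20. The first GW501516 array of day 15 accounted for 5: Acot3 at 7.59, Mogat1 at 8.17, Ehhadh at 12.90, Cd36 at 8.35 and Ptgds at 11.89, each nearer to the vehicle livers than the rest of its group. Other GW501516 arrays were marked for Cd36 on day 4 (array 1, 8.59), Nckap5, a cytoskeletal protein gene, on day 8 (array 5, 5.64) and Usp2 on day 8 (array 1, 11.55). Among vehicle arrays the marks were Cd36 on day 4 (array 2, 6.77), and on day 8 Ehhadh (array 7, 11.22), G6pc (array 4, 12.46) and Arntl (array 10, 6.41).

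The GW501516 effect differed between day 8 and day 4 for 190 genes in limma. The largest differences of the day 8 effect from that of day 4 were -3.07 for Npas2, -2.36 for Nckap5, -2.28 for Arntl, -1.79 for Fam89a, -1.54 for Bmp4 and -1.41 for the melatonin receptor Mtnr1a. On the other side they were 2.64 for Ciart, 2.40 for Usp2, 2.13 for Pdxp, 1.91 for Noct, 1.80 for Nrg4 and 1.54 for Per2. With clock covariates no gene was called in limma for this difference, and 1723 had an unadjusted p under 0.05. On day 8 component 1 ran from -2.22 to -1.22 in GW501516 livers and from 1.62 to 5.86 in vehicle livers. The covariate fit thus separates it poorly from treatment, and the loss of calls does not show a cause.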

How the results depend on the processing

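With the threshold at 0.01, the genes called were 1544 on the mean, 103, 750 and 393 on days 4, 8 and 15, 29 for day 8 against day 4, 369 against WY14643, 262 against rosiglitazone and 44 on each of the 3 days. Clock covariates gave 560 on the mean, 148 and 95 on days 8 and 15, 0 for day 8 against day 4, 32 against WY14643, 200 against rosiglitazone and 27 on each day; the cause of these losses was not tested. Array weights gave 662 on day 4, 35 for day 15 against day 4, 393 for day 8 against day 4, 1256 against rosiglitazone and 144 on each day. Leaving out dim genes gave 308 for day 8 against day 4 and 2 for day 15 against day 4, and a fit on only the groups compared gave 3 for the latter. Without day 8 or day 15 the mean had 1344 or 1462 genes. Against WY14643 there were 196 without day 4 and 347 without day 15, and against rosiglitazone 387, 287 and 223 without days 4, 8 and 15; these fits hold fewer arrays.

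Same-numbered livers did not deviate together: over 15 pairs r ran from -0.20 to 0.13, 1 exceeded 0.1, and 1 of 15 livers correlated best with its own number. With replicate number as a block, 144 genes were called on day 4, 25 for day 15 against day 4, 47 on each day, and 2296 on the mean.

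Leaving out each of 45 arrays gave 2287 to 2613 genes on the mean, 128 to 305 on day 4, 938 to 1776 on day 8, 518 to 859 on day 15, 81 to 269 for day 8 against day 4, 0 to 4 for day 15 against day 4, 678 to 981 against WY14643, 536 to 712 against rosiglitazone and 54 to 89 on each day. Of 219 named genes called on the mean, 25 lost the call without 1 array or more.

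With clock covariates, 97 of these 219 lost their call at the same sign and 11 more lost it with the sign turned; with Noct, which was not called, 12 named genes turned sign: Aass (-0.00), Alas1 (-0.36), Avpr1a (0.10), Fst (0.15), Lpin1 (-0.43), Noct (-1.20), Nr1d2 (-0.02), Papss2 (-0.05), Per1 (-0.20), Per2 (-0.43), Pfkfb3 (-0.25) and Zbtb16 (-0.07). No named gene turned sign under the other settings run.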

Other observations

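Lists not described above also held called genes. Of 21 glucocorticoid-inducible genes, 5 rose and 3 fell on the mean, where 6.86% of all genes rose and 7.06% fell. Fkbp5, a chaperone partner of the glucocorticoid receptor, had day effects of 0.41, 1.52 and 1.503, and its call was lost with clock covariates. Of 18 sex-biased hepatic genes, 5 rose and 1 fell, against the same shares. Cyp2b9, a female-biased cytochrome P450, had day effects of 0.33, 2.44 and 3.70, the last of which was called (4.54 without the first array of day 15), and Elovl3, a male-biased fatty acid elongase, -0.12, -1.50 and -1.25. Both lost their call on the mean with clock covariates. Of 22 immediate early genes 5 fell (against 7.06% of all genes) and none rose.

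Within the 10 vehicle livers of each day, mouse number was set against the level of Arntl and of Dbp, an output gene of the clock, in 6 relations (permutation tests, two-sided). For Dbp on day 15 Pearson's r was 0.73 (p = 0.019, adjusted 0.12; Spearman's rho 0.66, p = 0.042, adjusted 0.14), and 0.63 without the 2 mice farthest from the median number. For Arntl r was 0.17, -0.54 and -0.63 on days 4, 8 and 15. None of the 6 passed after adjustment.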
